A study of Mus musculus with 4 samples.

Results

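Dppa2, Dppa3, Dppa4, Dppa5a, Tcl1, Utf1, Fbxo15, Sall4, Lin28a and Nr0b1 are genes whose transcripts mark mouse embryonic stem cells. The 10 genes were chosen by name, as every probe set of the deposited table whose symbol is one of them. They hold 15 of 34760 probe sets and 10 of 20723 gene symbols. For a gene with several probe sets, the one with the highest mean over the arrays is the main one, and the others are given beside it. The files do not place the probe sets in the genome, so whether the further probe sets of Dppa2, Dppa3, Dppa4 and Lin28a report the gene they name or a related copy was not tested.

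All samples were E14 mouse embryonic stem cells, a line that the labels give as Ola129, grown on gelatin in medium with 15% serum and LIF. The 2 control samples had been transfected transiently with esiRNA against GFP, and the 2 silenced samples with esiRNA against Ogt, which encodes the enzyme that puts O-GlcNAc on proteins. EsiRNA is a pool of short interfering RNAs cut by an enzyme from a long double-stranded RNA. RNA of the whole culture was taken 48 h after transfection and measured on 4 one-colour arrays, so cells that took up no esiRNA are part of each sample. Every level below is a log2 value made by RMA, which scales the arrays to each other and sums up the probes of a probe set.

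The 10 genes stand for several layers of the stem cell state. Dppa2 and Dppa4 encode SAP-domain proteins that pair with each other and bind GC-rich DNA, and Dppa3 (also called Stella or PGC7) protects DNA methylation in the zygote and restrains the methylation cofactor UHRF1. Dppa5a and Lin28a encode RNA-binding proteins, and LIN28A blocks the maturation of let-7 microRNAs. Sall4, Utf1 and Nr0b1 encode nuclear regulators of the OCT4 network, Fbxo15 encodes an F-box protein long used as a reporter of that network, and TCL1 is a coactivator of the kinase AKT.

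The level of Ogt checks the labels. It read 11.51 and 11.38 in control and 9.73 and 10.09 in silenced cells, with a log2 difference of -1.54 (SE 0.17). The cells also carried their defining transcripts, with Pou5f1 between 12.40 and 12.43 on all arrays, Sox2 between 11.96 and 12.27 and Nanog between 12.24 and 12.48. None of these 3 differed detectably between the groups (unadjusted p in limma of 0.921, 0.454 and 0.705). The array medians ran from 6.398 to 6.456. Whether the replicates were separate cultures is not stated in the labels, and p-values therefore reflect array-to-array spread that may be technical.

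No difference between the groups in the stem cell markers passed the test. Of the 10 genes, 6 had a higher mean in silenced cells and 4 a lower one, and 51.2% of all gene symbols had a higher mean. Their median log2 difference was 0.02, and that of all gene symbols 0.00. Without regard to direction, the median size of the difference was 0.20 for the 10 genes and 0.13 for all gene symbols. The largest differences were in Tcl1, at 1.43-fold lower, Lin28a, at 1.26-fold lower, and Sall4, at 1.22-fold higher. No gene reached 1.5-fold, which 2.60% of all gene symbols did in either direction. As the RNA came from whole cultures, fewer cells with a transcript and less transcript per cell cannot be told apart.

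None of the 10 genes passed an adjusted p of 0.05 in limma, and their adjusted p ran from 0.685 to 0.998. Of all 34760 probe sets 0% passed, so that of Ogt did not pass either. At an unadjusted p under 0.05 there were also 0 of the 10, against 6.06% of gene symbols (3.40% higher and 2.66% lower), and 0 of the 15 probe sets, against 7.38% of all probe sets. The arrays of the 2 groups did not overlap for 3 of the 10, Dppa3, Tcl1 and Lin28a, where this held for 39.5% of gene symbols. One of the 3 was higher (20.0% of gene symbols) and 2 were lower (19.4%). Over probe sets it held for 5 of the 15, against 39.1% of all. Both shares were near the background and say nothing particular about the markers. After centring each array on its median it held for 5 of the 10 genes, against 38.7% of gene symbols. The number of arrays limits the precision, and for 2 arrays against 2 the smallest exact two-sided permutation p is 0.333. The 95% confidence interval of the difference stayed within a 2-fold change for 9 of the 10 genes, all but Tcl1, and within 1.5-fold for 4 of them, Dppa3, Dppa4, Dppa5a and Fbxo15.

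**Figure D1:**
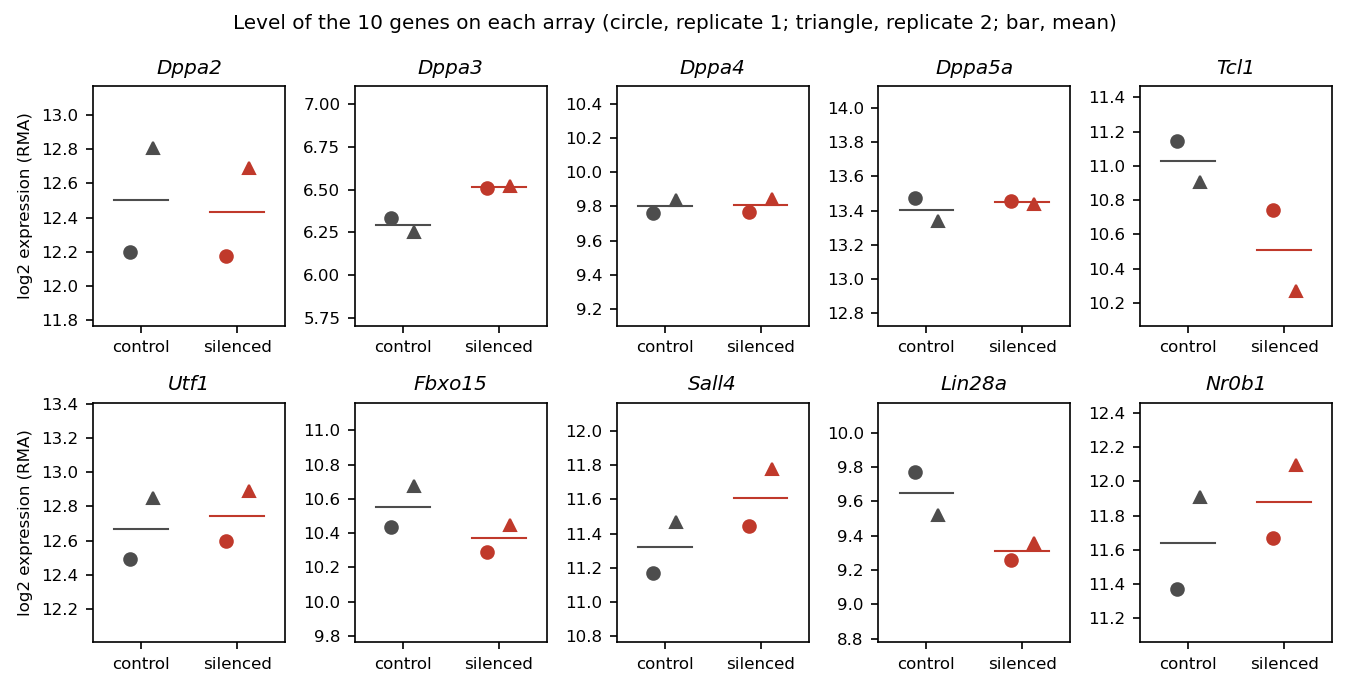
Log2 expression of the main probe set of each of the 10 genes on the 4 arrays (vertical axis, a window of the same height in every panel), with control samples in grey and silenced samples in red. Circles are replicate 1, triangles replicate 2 and bars the group means. The groups are apart for Dppa3, Tcl1 and Lin28a, and in Dppa2, Dppa4, Utf1, Fbxo15, Sall4 and Nr0b1 the triangle lies above the circle in both groups.

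Tcl1 had the lowest unadjusted p of the 10 genes. Its protein binds AKT and raises its kinase activity, and the gene is known for its part in self-renewal. Tcl1 read 11.14 and 10.91 in control and 10.74 and 10.27 in silenced cells. Each silenced array was lower than each control array, the nearest pair being 0.16 apart. The means were 11.03 ± 0.17 (SD, n = 2) and 10.51 ± 0.34 (SD, n = 2), a log2 difference of -0.52 (SE 0.21, 95% confidence interval -1.09 to 0.05). Limma gave an unadjusted p of 0.0656 and an adjusted p of 0.685. Leaving out 1 array at a time moved the log2 difference between -0.28 (without silenced replicate 2, unadjusted p = 0.23 in limma) and -0.76 (without silenced replicate 1, unadjusted p = 0.0184, adjusted p = 0.602). The difference with all arrays was thus over 1.5 times that without silenced replicate 2. The size of this difference exceeded that of 96.2% of gene symbols.

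Lin28a was the other gene that was lower on both silenced arrays, and it was so in both probe sets with its name. The main probe set read 9.77 and 9.52 in control and 9.26 and 9.36 in silenced cells. The second read 7.98 and 7.49 against 7.32 and 7.199. In each the control samples lay above the silenced samples, with control replicate 1 the highest array. The log2 difference was -0.34 (SE 0.15, 95% confidence interval -0.73 to 0.05) in the main probe set and -0.48 (SE 0.20) in the second. Limma gave unadjusted p-values of 0.0751 and 0.0723, and an adjusted p of 0.686 for both. Both probe sets were read on the same arrays, so their likeness adds no replicate. Without control replicate 1 the main probe set stood at -0.21.

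The sequences around the starts of these 2 genes are shown because they had the largest differences toward lower values among the markers. Each is the stretch of 250 bases before the transcription start in RefSeq (build GRCm38.p6), printed 5′ to 3′ on the strand of the gene, with motif matches in capitals. Tcl1 lies at chr12:105222738-105222987 and Lin28a at chr4:134018817-134019066, both on the minus strand.
Tcl1: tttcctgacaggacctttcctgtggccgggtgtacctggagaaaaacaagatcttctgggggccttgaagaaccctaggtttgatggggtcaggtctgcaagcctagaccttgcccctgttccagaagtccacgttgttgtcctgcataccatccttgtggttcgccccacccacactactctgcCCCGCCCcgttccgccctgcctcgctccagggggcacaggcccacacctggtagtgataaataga
Lin28a: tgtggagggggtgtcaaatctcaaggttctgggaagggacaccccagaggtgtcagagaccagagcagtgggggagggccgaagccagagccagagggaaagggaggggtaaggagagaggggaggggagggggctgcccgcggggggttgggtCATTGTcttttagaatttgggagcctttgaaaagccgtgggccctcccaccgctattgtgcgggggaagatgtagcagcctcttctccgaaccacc
The Tcl1 stretch holds 1 GC box of KLF and SP factors (GGGCGGG or its reverse CCCGCCC), which 23.6% of 32544 promoters hold in the same window. The Lin28a stretch holds 1 core of SOX factors (CATTGT or ACAATG), held by 10.5%. The OCT4 octamer (ATGCAAAT or ATTTGCAT), found in 1.62% of promoters, the ESRRB core (AAGGTCA or TGACCTT), found in 4.09%, and the TATA box (TATAAA or TTTATA), found in 12.3%, were not among these letters. No 2 of these motifs overlap here. Each of the 2 stretches holds 7 CG pairs, and the median promoter holds 6. A match is a string of letters and not a measured binding site. RefSeq promoters of Utf1 and Nr0b1 were matched too, and those of the other 6 genes are not analysed here.

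LIN28A is known for holding back let-7, so the let-7 hairpins give the sequences it acts on. Its zinc knuckles bind a GGAG string near the end of the loop, and the seed of the mature strand (bases 2 to 8) is shared by the family. The array table lists 11 let-7 hairpin genes, and RefSeq (GRCm38.p6) gives a hairpin for each. All 11 hold the seed GAGGUAG, 9 hold GGAG between the arms of the hairpin and 2, Mirlet7b and Mirlet7c-2, do not. A pair with the string and both without it are printed, with the seed and the GGAG in capitals.
Mirlet7g: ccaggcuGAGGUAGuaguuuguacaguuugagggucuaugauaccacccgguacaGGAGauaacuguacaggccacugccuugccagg
Mirlet7f-1: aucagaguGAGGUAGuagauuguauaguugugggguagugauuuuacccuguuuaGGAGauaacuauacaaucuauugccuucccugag
Mirlet7b: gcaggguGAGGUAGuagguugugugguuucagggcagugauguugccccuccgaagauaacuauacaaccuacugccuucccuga
Mirlet7c-2: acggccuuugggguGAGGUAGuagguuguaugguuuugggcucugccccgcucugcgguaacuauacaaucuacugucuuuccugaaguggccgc
The probe sets of these genes are listed by hairpin gene, and they do not measure the mature microRNA whose making LIN28A blocks. All 11 were taken, after the values had been seen. Of the 11, 5 were higher and 6 lower in silenced cells, and the median log2 difference was -0.03. None of them stood at an unadjusted p under 0.05 in limma (0 of 11). Mirlet7c-2 had the lowest value of the difference, -0.25 (unadjusted p = 0.145), reading 5.78 and 5.90 in control and 5.70 and 5.49 in silenced cells. Mirlet7f-1 had the highest, 0.25 (unadjusted p = 0.172), and Mirlet7g stood at 0.01. Mirlet7f-1 read between 4.14 and 4.61 and Mirlet7g between 4.37 and 4.68. All of these levels lay below the array medians. The hairpins with and without GGAG were not tested against each other.

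Other genes of the let-7 and LIN28 pathway were mixed. Of 15 measured genes 11 were higher and 4 lower, and the median log2 difference was 0.15. None passed over all probe sets. In either direction 6.06% of gene symbols stood at an unadjusted p under 0.05, and 2.66% lower. Of the 15 genes 1 did, and it was lower. This was Dicer1, which encodes the nuclease that frees the mature microRNA from its hairpin, at -0.41 (SE 0.13, unadjusted p = 0.0327). It read 10.41 and 10.55 in control and 10.14 and 9.998 in silenced cells. Igf2bp2, an RNA-binding gene and let-7 target, stood at 0.30 (SE 0.12) with separate groups. Hmga2, the classic let-7 target and a chromatin architectural gene, stood at 0.62 (SE 0.33), and its groups overlapped. The paralogue Lin28b stood at -0.03 (SE 0.13).

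Dppa2 and Dppa4, which lie side by side in the genome and whose proteins work as a pair, showed no detectable difference. Dppa4 read 9.76 and 9.84 in control and 9.77 and 9.84 in silenced cells. The arrays of the 2 groups were interleaved, with a log2 difference of 0.01 (SE 0.12, 95% confidence interval -0.31 to 0.32). Its second probe set stood at -0.10 (SE 0.15), and the direction of the main one turned after quantile normalization, to -0.018, with the mean of both probe sets, to -0.049, and without control replicate 1 or silenced replicate 2, to -0.030 in both cases.

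Dppa2 read 12.20 and 12.81 in control and 12.18 and 12.69 in silenced cells. The 2 arrays of a group were farther apart than the groups, since replicate 2 was the higher array of both groups, by 0.61 and 0.51. The log2 difference was -0.07 (SE 0.29, 95% confidence interval -0.85 to 0.71), an interval that includes changes of over 1.5-fold either way. The direction turned without control replicate 2, to 0.23, and without silenced replicate 1, to 0.18. The other probe sets of Dppa2 stood at -0.32 (SE 0.37) and -0.15 (SE 0.26), each with overlapping groups, so that the 3 probe sets named Dppa2 all had a lower mean and none passed.

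Genes of the 2-cell-like state, which DPPA2 and DPPA4 are known to switch on in rare stem cells, showed the same split by replicate. In 11 of 13 measured genes replicate 2 was above replicate 1 in both groups, where this held for 32.6% of gene symbols. Zscan4c, an early embryo gene named here after its values were seen, read 8.14 and 11.58 in control and 7.31 and 10.98 in silenced cells. Tdpoz1, with the smallest p of the list, stood at -0.22 (SE 0.15, unadjusted p = 0.208), Tdpoz5 at -0.81 (SE 0.64) and Tcstv1 at -0.34 (SE 0.48). Tdpoz1 read between 4.29 and 4.69, below the array medians. Of the 13, 12 were lower and 1 higher in silenced cells, with a median log2 difference of -0.34, and 0 stood at an unadjusted p under 0.05. Whether the replicate split of Dppa2 and that of these genes are tied to each other was not tested.

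Dppa3 had the closest replicates of the 10 genes and was higher on both silenced arrays. It read 6.33 and 6.25 in control and 6.51 and 6.52 in silenced cells. This was the lowest level of the 10 genes and near the array medians. The second probe set read 5.80 and 5.96 against 6.19 and 5.98, with the groups again apart, though by 0.01 at the nearest pair. Each of these values lay below the array medians. The log2 difference was 0.22 (SE 0.12, 95% confidence interval -0.09 to 0.54, unadjusted p = 0.121) in the main probe set and 0.20 (SE 0.15, unadjusted p = 0.231) in the second, with adjusted p-values in limma of 0.703 and 0.762. The direction held in every alternative tried that kept the gene. RefSeq lists a pseudogene, Dppa3-ps, and the files do not say which copy each probe set matches, so the 2 probe sets may not both report Dppa3.

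Of the genes that place, keep or remove DNA methylation, the process in which DPPA3 acts, all 7 measured were higher. Their median log2 difference was 0.16, with 0 at an unadjusted p under 0.05. Tet3 and Tet2, which encode methylcytosine dioxygenases, stood at 0.23 (SE 0.12) and 0.36 (SE 0.21), and Dnmt1, the maintenance methyltransferase gene, at 0.16 (SE 0.12). In all 7 replicate 2 was also above replicate 1 in both groups. Uhrf1, the cofactor that DPPA3 restrains, stood at 0.09, with overlapping groups.

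Dppa5a (Esg1), which encodes a KH-domain RNA-binding protein, had a near equal level on all arrays. It read 13.47 and 13.34 in control and 13.46 and 13.44 in silenced cells. Both silenced arrays lay between the control arrays, and the log2 difference was 0.04 (SE 0.12, 95% confidence interval -0.28 to 0.37). The direction turned without control replicate 2, to -0.023. RefSeq lists the pseudogenes Dppa5b and Dppa5c, whose RNA a probe set of Dppa5a could also detect. Ooep, another KH-domain gene, stood at -0.01 (SE 0.17).

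Among the nuclear regulators, Sall4 differed most. Its zinc finger protein recruits the NuRD corepressor and holds back differentiation genes. Sall4 read 11.17 and 11.47 in control and 11.44 and 11.78 in silenced cells. Silenced replicate 1 lay just under control replicate 2, so the groups overlapped, and replicate 2 was the higher array of both groups. The log2 difference was 0.29 (SE 0.19, 95% confidence interval -0.22 to 0.80), with an unadjusted p of 0.193 and an adjusted p of 0.742 in limma. It stood at 0.12 without silenced replicate 2, 0.14 without control replicate 1 and 0.46 without silenced replicate 1. The paralogues Sall1, Sall2 and Sall3 stood at 0.07 (SE 0.20), 0.11 (SE 0.13) and -0.17 (SE 0.14). Sall2 read below the array medians on every array. Of 12 NuRD genes 5 were higher and 7 lower, with a median of -0.02 and 0 at an unadjusted p under 0.05. Mta1 and Mta2, which encode subunits that bind the deacetylases of the complex, stood at 0.28 (SE 0.17) and 0.26 (SE 0.14), and Chd4, its remodelling ATPase gene, at 0.24 (SE 0.20).

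Nr0b1 (Dax1) encodes an orphan nuclear receptor that binds OCT4. It read 11.37 and 11.91 in control and 11.67 and 12.09 in silenced cells. Replicate 2 was again the higher array, by 0.54 and 0.43, and these gaps exceeded the group difference of 0.24 (SE 0.26, 95% confidence interval -0.45 to 0.93). The direction turned without control replicate 1, to -0.025. Its relative Nr0b2, which read below the array medians on every array, stood at -0.18 (SE 0.21).

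Utf1 encodes a chromatin-bound factor found in undifferentiated cells. It read 12.49 and 12.85 in control and 12.60 and 12.89 in silenced cells. The groups overlapped, with replicate 2 higher in both, and the log2 difference was 0.07 (SE 0.19, 95% confidence interval -0.44 to 0.59). The direction turned without control replicate 1, to -0.10, and without silenced replicate 2, to -0.07.

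Fbxo15 encodes a substrate receptor of SCF ubiquitin ligases and is switched on by OCT4 and SOX2. It read 10.43 and 10.67 in control and 10.29 and 10.45 in silenced cells. The groups overlapped by 0.02, and the log2 difference was -0.18 (SE 0.15, 95% confidence interval -0.58 to 0.22, unadjusted p = 0.284). It stood at -0.062 without control replicate 2, -0.10 without silenced replicate 1 and -0.30 without control replicate 1. Of 5 genes of the SCF core 2 were higher and 3 lower, with 0 at an unadjusted p under 0.05. Rbx1, which encodes its RING subunit, stood at -0.20 (SE 0.14), Nedd8, the modifier that activates the ligase, at -0.15 (SE 0.15) and Skp1a, the adaptor of F-box proteins, at -0.12 (SE 0.14).

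**Figure D2:**
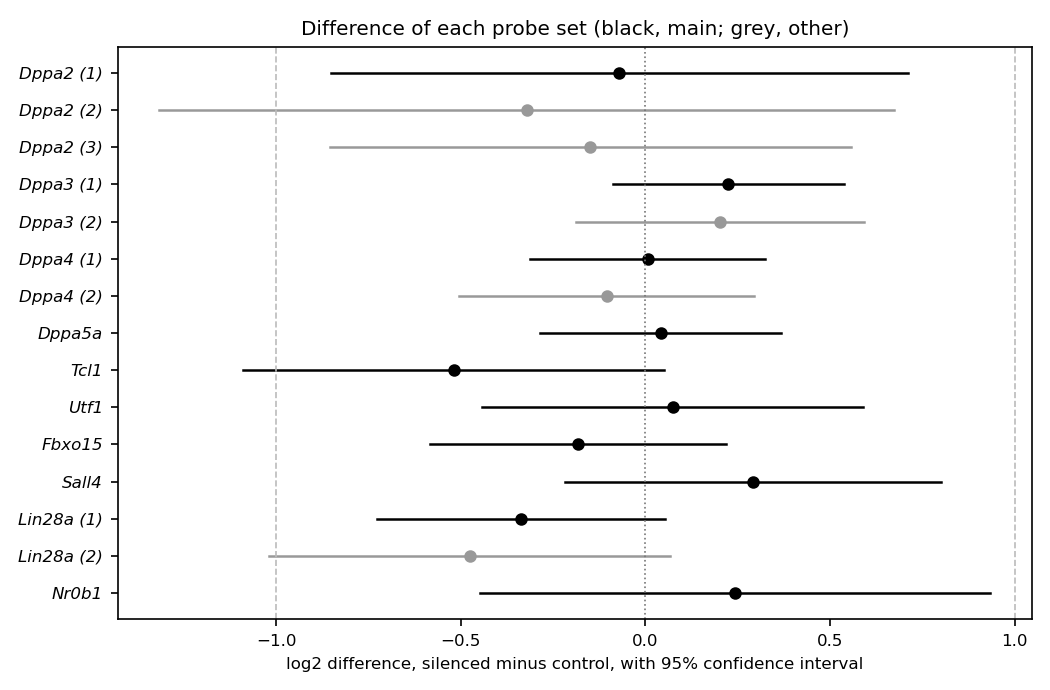
Log2 difference, silenced minus control, of all 15 probe sets of the 10 genes (points) with 95% confidence intervals from limma (lines). Black marks the main probe set and grey the others, numbered from the highest mean, and dashed lines stand at a 2-fold change. Every interval includes 0, and those of Tcl1, the second probe set of Dppa2 and the second of Lin28a reach past 2-fold.

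Partners of TCL1 were more often higher than lower. Of 8 genes of AKT and PI3K signalling 6 were higher and 2 lower, and the median log2 difference was 0.11. None passed over all probe sets. Akt2 stood at 0.29 (SE 0.13) and Pik3r1, which encodes a regulatory subunit of PI3K, at 0.18 (SE 0.12), both with separate groups. The relatives of Tcl1 on the same chromosome were mixed, with Tcl1b3 at 0.26 (SE 0.11), Tcl1b5 at 0.06 (SE 0.15), Tcl1b1 at -0.13 (SE 0.12), Tcl1b4 at -0.14 (SE 0.12) and Tcl1b2 at -0.27 (SE 0.16). All of these Tcl1b genes read below the array medians on every array, Tcl1b3 lowest, between 3.69 and 3.98. Mtcp1, which encodes a related protein, stood at -0.16 (SE 0.30).

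The spread between replicates was compared with the group difference for each gene. The mean gap between the 2 arrays of a group exceeded the group difference in 7 of the 10 genes, where this held for 60.3% of gene symbols. The gap was widest in Dppa2, at 0.56, followed by Nr0b1 at 0.48, and narrowest in Dppa3, at 0.05. Dppa3, Lin28a and Tcl1 were the 3 genes whose group difference was the larger of both values. Replicate 2 was above replicate 1 in both groups for 6 genes, Dppa2, Dppa4, Utf1, Fbxo15, Sall4 and Nr0b1, and below it in both for 2, Tcl1 and Dppa5a. The gap thus had the same sign in both groups for 8 of 10 genes, against 68.2% of gene symbols.

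**Figure D3:**
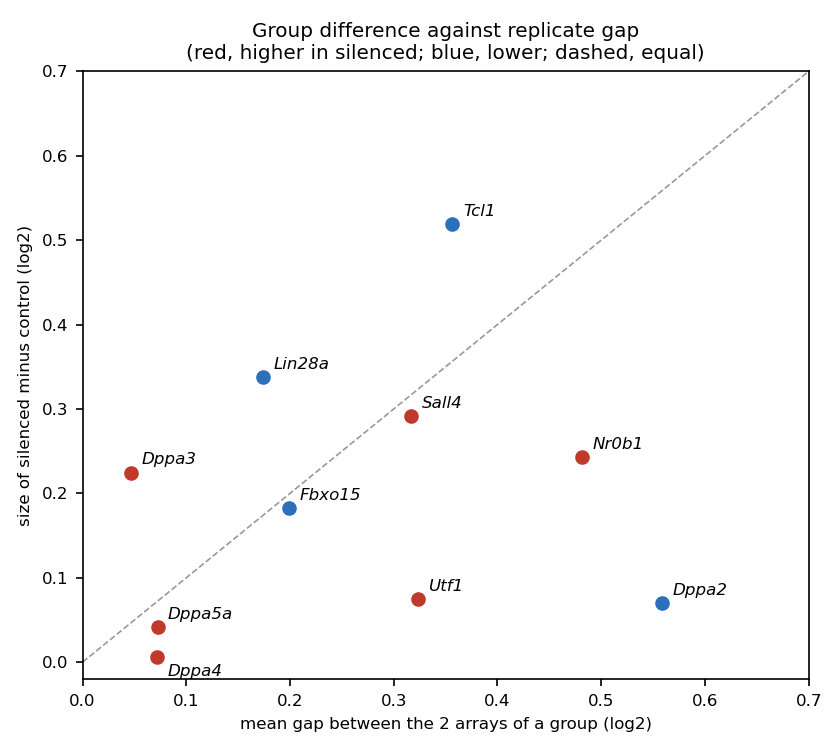
Size of the log2 difference between the groups (vertical axis) against the mean gap between the 2 arrays of a group (horizontal axis, log2) for the 10 genes, red where the silenced samples were higher and blue where they were lower. Dppa3, Lin28a and Tcl1 lie above the dashed line of equal values, and Dppa2, with a gap of 0.56 and a difference of 0.07, lies farthest to the right.

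Other transcripts of embryonic stem cells were more often higher than lower. Of 24 further stem cell associated genes 19 were higher and 5 lower, and the median log2 difference was 0.15, against 0.00 over all gene symbols. None passed over all probe sets. In either direction 6.06% of gene symbols stood at an unadjusted p under 0.05, and 3.40% higher. Of the 24 genes 1 did, and it was higher. This was Jam2, which encodes a junctional adhesion molecule. It read 11.69 and 11.66 in control and 12.08 and 12.26 in silenced cells, a log2 difference of 0.50 (SE 0.13, unadjusted p = 0.0155, adjusted p = 0.674 in limma). Mybl2, a cell cycle transcription factor gene, stood at 0.23 (SE 0.12) and Phc1, a Polycomb gene, at 0.22 (SE 0.11), both with separate groups. In 15 of the 24, replicate 2 was above replicate 1 in both groups, and the part of this split in these differences was not tested. Among 10 core and naive factors 8 were higher and 2 lower, with a median of 0.04, and Esrrb stood at 0.31 (SE 0.11, unadjusted p = 0.0487).

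Of 10 primordial germ cell genes, the lineage in which Dppa3, Lin28a and Sall4 are also known to act, 4 were higher and 6 lower, and the median log2 difference was -0.02. An unadjusted p under 0.05 was found for 2 of them, both lower. Of all gene symbols 6.06% stood at that level in either direction, and 2.66% lower. Ddx4, which encodes the germ cell helicase VASA, read 8.30 and 7.92 in control and 7.52 and 7.08 in silenced cells, at -0.81 (SE 0.22, unadjusted p = 0.0195). Mael, a piRNA pathway gene, read 9.49 and 9.52 against 8.97 and 9.11, at -0.46 (SE 0.12, unadjusted p = 0.0172). Both had separate groups and neither passed over all probe sets (adjusted p = 0.674 in limma). Prdm1, a specifier of the lineage, stood at 0.19 (SE 0.12).

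Markers of other cell types went both ways. Of 10 fibroblast markers, which feeder cells would carry, 4 were higher and 6 lower (median -0.05), with Fbn1 at 0.54 (SE 0.15), Vim at -0.49 (SE 0.14) and Col1a1 at -0.30 (SE 0.14). Of 9 primitive endoderm markers 6 were higher and 3 lower (median 0.15), with Lama1 at 0.34 (SE 0.12), Amn at -0.40 (SE 0.13) and Foxa2 at -0.30 (SE 0.12). Of 7 trophectoderm markers 4 were higher and 3 lower (median 0.03), with Krt18 at 0.31 (SE 0.21), Krt8 at 0.30 (SE 0.27) and Hand1 at -0.17 (SE 0.12). Of 7 neuroectoderm markers 2 were higher and 5 lower (median -0.05), with Sox11 at -0.35 (SE 0.13) and Pax6 at -0.97 (SE 0.44). Of 8 primed epiblast and mesoderm markers 4 were higher and 4 lower (median -0.03), with Pou3f1 at -0.21 (SE 0.14), T at -0.17 (SE 0.12) and Mixl1 at 0.18 (SE 0.14). At an unadjusted p under 0.05 in limma stood 2 of the 10 fibroblast, 2 of the 9 primitive endoderm and 2 of the 7 neuroectoderm markers. In each of these lists 1 of them was higher and 1 lower. The count was 0 for the trophectoderm list and for the primed epiblast and mesoderm list. Of all gene symbols 6.06% stood at that level in either direction. None of these genes passed over all probe sets. Some read below the array medians on every array, among them Fbn1 (5.66 to 6.36) and T (4.81 to 5.05). Vim read far higher, between 11.69 and 12.32, while Col1a1 read between 6.83 and 7.28. Which cells the Vim signal came from was not tested.

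**Figure D4:**
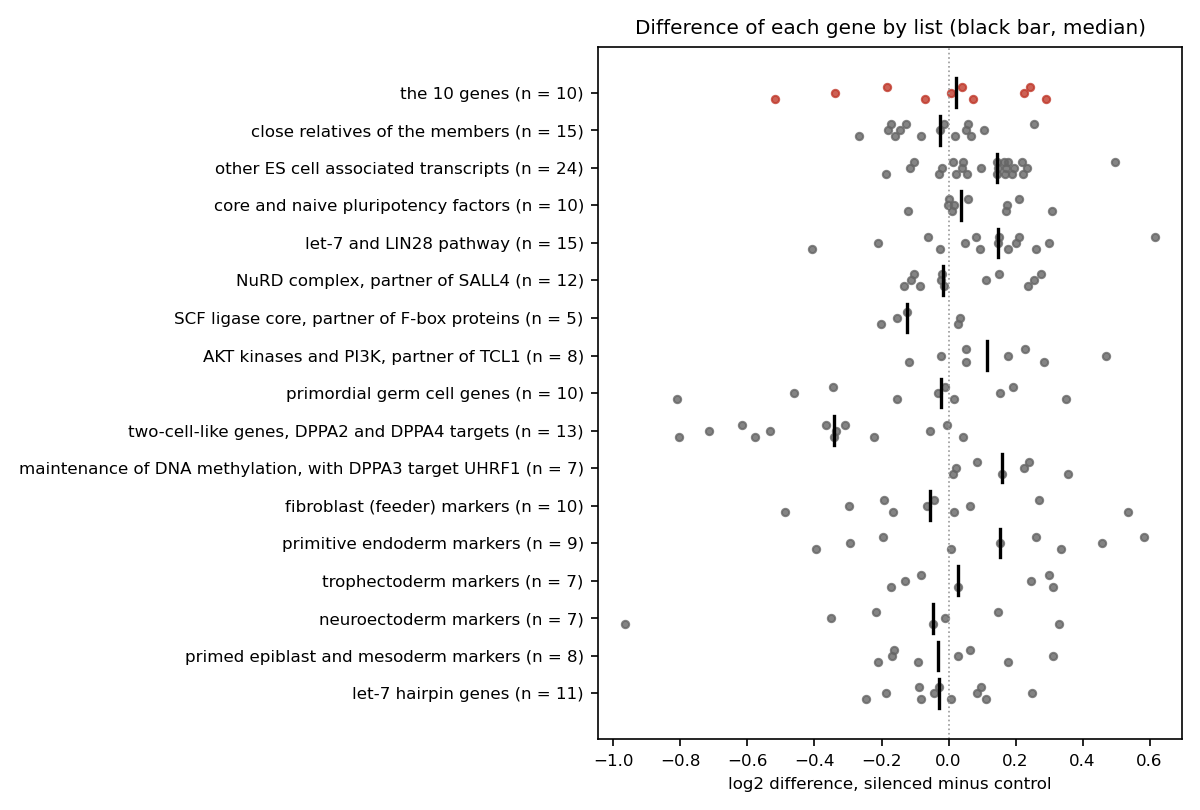
Log2 difference, silenced minus control, of each measured gene (points) in the 10 stem cell markers (red), in the lists of their relatives, partners and targets, in the marker lists of other cell types and in the let-7 hairpin genes (grey), with the median of each list as a black bar and n the genes measured. The 10 markers spread from -0.52 to 0.29 around a median of 0.02, and the 2-cell-like list has the lowest median of those shown, -0.34.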

How the data were processed

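The authors made the log2 values with RMA, and limma gave the fold changes and p-values of their deposited table, per the submitters' processing notes. The sources used here name no array type, annotation release or genome build. All 34760 probe sets were fitted with limma 3.58.1 (lmFit, eBayes) under R 4.3.3, group as the only term (2 residual degrees of freedom, 4.38 in all), with Benjamini-Hochberg adjustment over all of them at 0.05. This fit, tested on simulated data, matched each p-value in the authors' deposited table to within 4.84e-08. Replicate numbers were not used as pairs, as nothing says what a number marks. Lists use each gene's probe set of highest mean. Named are the 10 genes with all their probe sets, Ogt, Pou5f1, Sox2, Nanog, relatives of the 10 and up to 3 genes per list by smallest p. Uhrf1, Zscan4c and the let-7 hairpin genes are named outside this rule. Some genes that this rule names are not reported here. Members and lists were chosen with earlier results of these data known. Alternatives were other scalings, filters, variance priors, thresholds, the mean of probe sets, the replicate block and leaving out each array.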

Additional observations from a re-analysis of the deposited data

How the results depend on the processing

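In limma 0 of the 10 genes passed under every alternative tried, a threshold of 0.10 included, and the lowest adjusted p of any of them was 0.307. The number at an unadjusted p under 0.05 was 0 in all alternatives with all arrays except the replicate block. With that block, whose pairing has no source in the labels, limma put 2 genes there, Tcl1 and Sall4 (adjusted p = 0.307 and 0.325), while 15.2% of all probe sets stood at that level. Over all probe sets the gaps between the replicates of the control and silenced groups correlated at 0.479, which with 2 pairs is only a hint. Without 1 array the number was 0 to 1 (Tcl1), the number of genes higher was 3 to 7 (6 with all arrays), and the number with separate groups 5 to 8 (3 with all arrays), where a group of 1 array overlaps less by construction. Centring each array on its median gave 5 with separate groups, adding Sall4 and Fbxo15, where this held for 38.7% of gene symbols. Without 1 array it held for 67.0% to 72.8% of gene symbols. Of 79 values of single genes with all arrays, 2 turned direction, both of Dppa4, at -0.018 after quantile normalization and -0.049 with the mean of its probe sets. Of 40 values without 1 array 8 turned. Over these, Dppa2 ran from -0.37 to 0.23, Dppa4 from -0.030 to 0.042, Dppa5a from -0.023 to 0.11, Utf1 from -0.10 to 0.25 and Nr0b1 from -0.025 to 0.51, while the other 5 genes kept their direction. Of these, Tcl1 ran from -0.76 to -0.28, Lin28a from -0.46 to -0.21, Fbxo15 from -0.30 to -0.062, Sall4 from 0.12 to 0.46 and Dppa3 from 0.18 to 0.27. The cause was not tested. Dppa3 fell below the median level and was left out by that filter, so the counts of genes higher and of separate groups were not made there. The values of the other 9 under that filter are among the 79. Without 1 array the lone sample of a group is assumed to vary like the other group.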
